A study of Homo sapiens with 12 samples.

Results

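MEN1, DAXX, ATRX, SETD2, TSC1, TSC2, VHL, MUTYH and CHEK2 are the 9 genes followed here, each recurrently altered in sporadic or inherited pancreatic neuroendocrine tumors (pNETs), and they were taken by symbol from the 28008 genes of the count tables. All 9 were present in both tables and all 9 passed the filter on low counts in every comparison. RNA-seq was performed on 12 libraries of 2 human pNET cell lines, QGP-1 and BON-1. Each line carried a doxycycline (DOX)-inducible hairpin against MUC1 (tet-MUC1shRNA) in puromycin-selected, vector-transduced cells, and each was exposed for 7 days to 0.1% DMSO as the vehicle or to 500 ng/mL DOX, with 3 libraries per group from cells cultured in triplicate. The vehicle groups thus carried the hairpin as well. No line with a control hairpin is among these libraries, so an action of DOX itself cannot be told apart from silencing of MUC1. The lines were grown in different media, and line, medium, sequencing depth and deposited table cannot be told apart in any comparison between them.

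The genes encode proteins of 4 kinds. Menin (MEN1), DAXX, ATRX and SETD2 act on chromatin, menin as a partner of the KMT2A and KMT2B histone H3 lysine 4 methyltransferases, DAXX and ATRX as the chaperone and remodeler that place histone H3.3 at telomeres and other repeats, and SETD2 as the enzyme that trimethylates histone H3 lysine 36. TSC1 and TSC2 form the complex that restrains mTORC1, VHL is the substrate receptor of the ubiquitin ligase that degrades the hypoxia-inducible factors, MUTYH is a DNA glycosylase of base excision repair, and CHEK2 is a checkpoint kinase that signals DNA breaks. In pNETs they are known as tumor suppressors that lose function by mutation, and loss of DAXX or ATRX is linked to alternative lengthening of telomeres. RNA levels do not show mutations, and the genotype of the lines at these genes was not analysed here.

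Total counts were 38224144 to 50525926 per QGP-1 library and 15981954 to 28484324 per BON-1 library. MUC1 itself fell with DOX in both lines, from 6.37 ± 0.867 to 0.850 ± 0.188 CPM (counts scaled to library size; mean ± SD, n = 3) in QGP-1 and from 18.4 ± 2.99 to 2.65 ± 1.25 CPM in BON-1. Of 12 neuroendocrine markers, 11 had a mean of at least 1 CPM in every group, and NEUROD1 was at 0 in every QGP-1 library. The summed level of these markers was 6019 to 6872 CPM in QGP-1 vehicle, 6834 to 7462 CPM in QGP-1 DOX, 11777 to 15280 CPM in BON-1 vehicle and 9618 to 9973 CPM in BON-1 DOX libraries. Markers of other cell types differed between the groups as well. The summed level of 6 acinar markers, of which 1 had a mean of at least 1 CPM, went from 84.6 to 155 CPM in vehicle to 29.7 to 41.0 CPM in DOX libraries of QGP-1 and from 34.6 to 44.6 CPM to 19.1 to 26.8 CPM in BON-1. That of 5 ductal markers went from 389 to 455 CPM to 482 to 600 CPM in BON-1 and overlapped in QGP-1, at 197 to 238 CPM and 165 to 209 CPM. The sums of 5 fibroblast and 5 leukocyte markers were low, the highest being 10.4 to 11.1 CPM of fibroblast markers in BON-1 DOX libraries, above 5.02 to 6.42 CPM in vehicle, and 16.3 to 19.7 CPM of leukocyte markers in QGP-1 DOX libraries, above 10.2 to 11.9 CPM in vehicle. In each group only 1 fibroblast and 1 leukocyte marker had a mean of at least 1 CPM, so these sums are not changes of a whole set. The part of the neuroendocrine and other markers in the results was not tested.

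With DOX, SETD2 and VHL rose in both lines. In addition, ATRX rose and CHEK2 fell in QGP-1, and MEN1 fell in BON-1. By edgeR's quasi-likelihood test with Benjamini-Hochberg adjustment over all genes, 3 of the 9 genes were called higher and 1 lower in QGP-1 at an adjusted p below 0.05, where 17.3% of the 15089 genes tested were called higher and 17.7% lower. In BON-1, 2 of 9 were called higher and 1 lower, where 17% of 14625 genes were called higher and 18.3% lower. The counts of called members thus lay near the share over all genes. The 2 genes higher in both lines stand beside 6.88% of the 13535 genes tested in both lines, and none of the 9 was lower in both, beside 7.23%. In bulk libraries a change in the cells that express a gene and a change in RNA per cell cannot be told apart. The changes were small: absolute log2 fold changes ran from 0.10 to 0.39 in QGP-1 and from 0.04 to 0.41 in BON-1, and the median over the 9 genes was -0.10 and -0.04, beside -0.01 over all genes tested in each line. On the deposited TPM scale (limma on log2(TPM + 1)) the median of all genes itself moved by 0.59 in QGP-1 and -0.31 in BON-1 (0.29 and -0.05 when the TPM were rescaled without the RNAs named next). In QGP-1, 3 abundant noncoding RNAs (RN7SK, RN7SL1 and RN7SL2) held 78.8% to 80.3% of the TPM in vehicle and 71.2% to 75.4% in DOX libraries. In BON-1 they held 50.9% to 65.6% in vehicle and 53.4% to 74.3% in DOX libraries. Relative to the medians of all genes VHL was at 0.30 and 0.36, SETD2 at 0.29 and 0.18, ATRX in QGP-1 at 0.22, CHEK2 in QGP-1 at -0.34 and MEN1 in BON-1 at -0.26. These are the directions found from the counts. The TPM are the same counts divided by a gene length and a factor per library, so these values are no separate support.

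**Figure D1:**
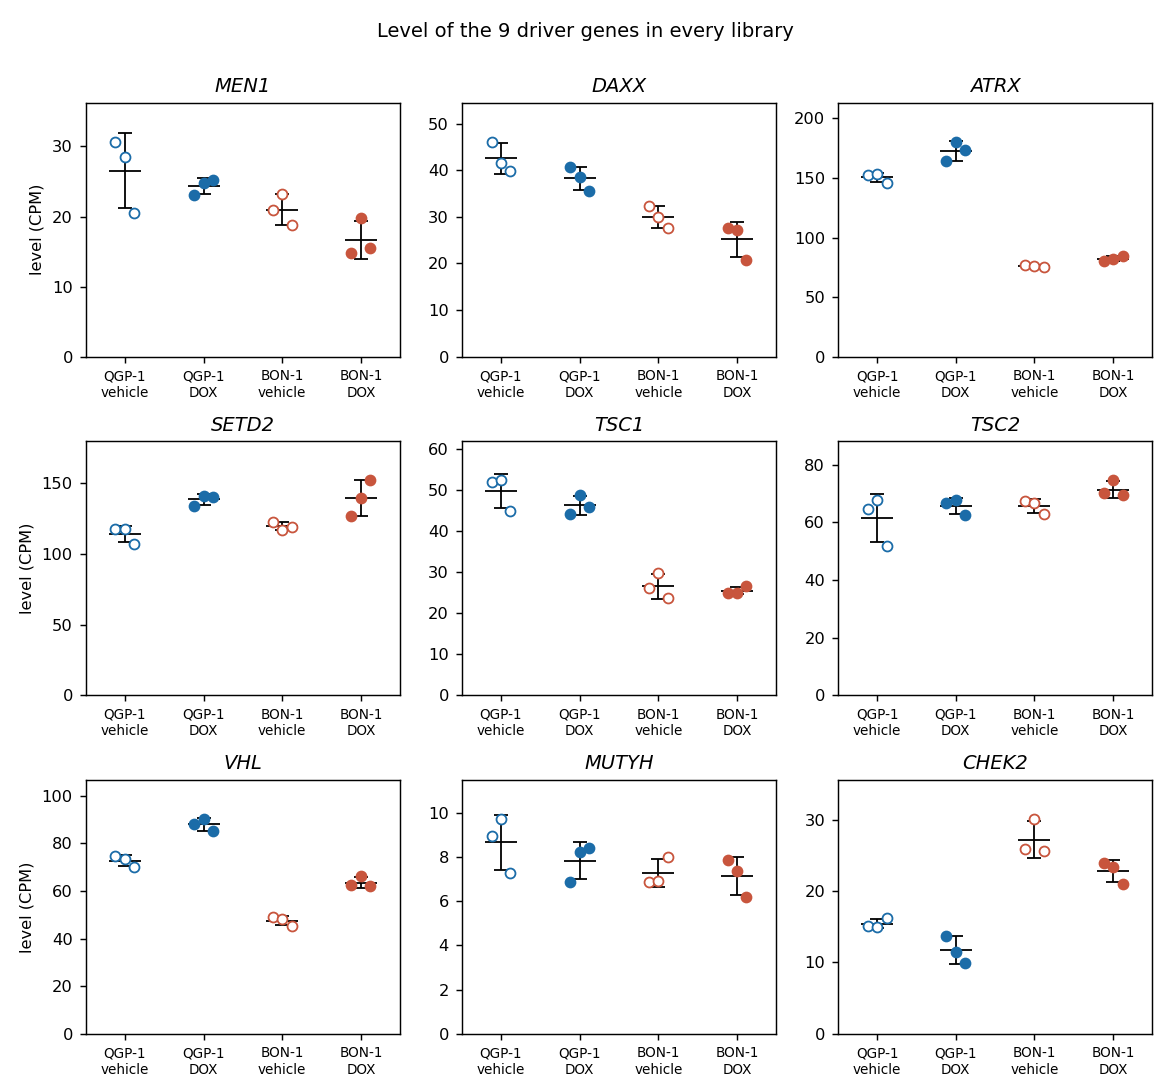
Level of each of the 9 driver genes in CPM (vertical axis from 0) in the 3 vehicle (open) and 3 DOX (filled) libraries of QGP-1 (blue) and BON-1 (red); bars are the mean and SD of 3 libraries. The DOX points of VHL and SETD2 lie above the vehicle points in both lines, and ATRX and TSC1 sit lower in BON-1 than in QGP-1 on this scale (not on the deposited TPM scale).

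SETD2 lies on the minus strand of chromosome 3 (GRCh38 position 47016428 to 47164113, GENCODE annotation), and VHL on the plus strand of the same chromosome (10141778 to 10153667). RefSeq promoter windows, from 250 bases before to 50 bases after an annotated start, could be matched for 6 of the 9 genes, in 10 windows. None was matched for DAXX, ATRX or VHL, so their promoters were not searched. Of the 10 windows, 3 are printed here. The first belongs to SETD2, which rose in both lines, the second to CHEK2, which fell in QGP-1 with DOX and was higher in BON-1 than in QGP-1 vehicle, and the third to TSC2, whose window alone held one of the motifs searched. Sequences are given 5′ to 3′ on the gene's strand from the GRCh38.p14 build in lower case, with a matched motif in capitals.
SETD2, chr3:47164064-47164363, minus strand: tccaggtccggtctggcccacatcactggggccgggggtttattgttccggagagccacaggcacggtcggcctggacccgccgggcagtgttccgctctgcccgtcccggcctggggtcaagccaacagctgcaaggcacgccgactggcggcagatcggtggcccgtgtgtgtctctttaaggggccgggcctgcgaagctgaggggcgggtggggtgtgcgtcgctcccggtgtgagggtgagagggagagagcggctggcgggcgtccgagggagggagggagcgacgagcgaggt
CHEK2, chr22:28741771-28742070, minus strand: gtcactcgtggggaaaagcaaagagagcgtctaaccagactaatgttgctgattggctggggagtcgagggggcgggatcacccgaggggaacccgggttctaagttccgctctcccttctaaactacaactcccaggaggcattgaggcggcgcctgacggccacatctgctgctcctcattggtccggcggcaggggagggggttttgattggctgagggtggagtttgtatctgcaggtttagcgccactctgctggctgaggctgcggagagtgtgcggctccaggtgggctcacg
TSC2, chr16:2047735-2048034, plus strand: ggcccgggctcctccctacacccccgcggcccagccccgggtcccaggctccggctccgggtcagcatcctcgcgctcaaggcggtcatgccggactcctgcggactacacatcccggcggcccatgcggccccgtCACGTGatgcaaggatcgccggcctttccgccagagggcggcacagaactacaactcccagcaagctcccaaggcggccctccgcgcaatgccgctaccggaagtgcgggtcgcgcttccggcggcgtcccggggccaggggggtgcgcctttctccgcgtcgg

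The motifs searched on both strands were the E-box CACGTG, bound by MYC with MAX, and the E2F site as TTTCCCGC, TTTCGCGC, TTTGGCGC or TTTGCCGC. Of all 35116 windows, 7.26% held the E-box and 3.31% an E2F site. Among the 10 windows of the members, only this first window of TSC2 had a match, an E-box whose first base lies at -114 from the start, and the match is a description and not a site of binding. The G and C content of the 10 windows ran from 56.3% to 74.7%, beside a median of 58.7% over all windows.

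VHL had the largest increase among the 9 in BON-1. In QGP-1 it measured 74.8, 73.3 and 70.3 CPM in vehicle and 88.3, 90.4 and 85.2 CPM in DOX libraries. In BON-1 it measured 48.9, 48.4 and 45.2 CPM in vehicle and 62.5, 66.1 and 62.1 CPM in DOX libraries. Every DOX library lay above every vehicle library of its line. The log2 fold change was 0.27 (SE 0.0701, edgeR adjusted p = 0.00774) in QGP-1 and 0.41 (SE 0.0855, edgeR adjusted p = 0.000408) in BON-1, an increase of 20.9% and 32.9%. The call held with any 1 library left out, at adjusted p of 0.0109 to 0.0354 in QGP-1 and 0.000596 to 0.00544 in BON-1. An antisense long noncoding gene overlaps 1173 exon bases of VHL, and whether counting used the strand of the stranded library is not given in the sources used here.

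SETD2 rose by 21.5% in QGP-1 and by 16.0% in BON-1. In QGP-1 it measured 117, 118 and 107 CPM in vehicle and 134, 141 and 140 CPM in DOX libraries. In BON-1 the vehicle libraries held 123, 117 and 119 CPM and the DOX libraries 127, 140 and 152 CPM. The DOX libraries were again above the vehicle libraries in both lines, with a wider spread among the DOX libraries of BON-1. The log2 fold change was 0.28 (SE 0.0682, edgeR adjusted p = 0.00551) in QGP-1, and it stayed called with any 1 library left out. In BON-1 it was 0.21 (SE 0.0774, edgeR adjusted p = 0.0315), and the call was lost without vehicle replicate 2 (adjusted p = 0.123), vehicle replicate 3 (0.0967), DOX replicate 2 (0.0756) or DOX replicate 3 (0.177), and with library-size scaling (0.0837) or no filter on low counts (0.0606).

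ATRX, on chromosome X (77504880 to 77786233, minus strand), rose slightly in QGP-1. It measured 152, 153 and 146 CPM in QGP-1 vehicle and 164, 181 and 174 CPM in QGP-1 DOX libraries. In BON-1 the values were 77.0, 76.1 and 74.9 CPM in vehicle and 80.1, 82.3 and 84.2 CPM in DOX libraries. The groups did not overlap in either line, and the BON-1 shift was a few CPM. The log2 fold change was 0.20 (SE 0.0661, edgeR adjusted p = 0.0298) in QGP-1 and 0.10 (SE 0.0786, edgeR adjusted p = 0.326) in BON-1. The call in QGP-1 did not hold without vehicle replicate 1, 2 or 3 (adjusted p = 0.0689, 0.0682 and 0.0728) and without DOX replicate 2 or 3 (0.124 and 0.0813), although it did at 0.013 without DOX replicate 1, and it was lost with upper-quartile scaling (0.0619).

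DAXX, the partner of ATRX on chromosome 6 (33318558 to 33323016, minus strand), passed the test in neither line. QGP-1 libraries held 46.1, 41.6 and 39.8 CPM with vehicle and 40.6, 38.5 and 35.5 CPM with DOX, which overlap. BON-1 libraries held 32.3, 30.0 and 27.7 CPM with vehicle and 27.6, 27.1 and 20.8 CPM with DOX, and the highest DOX library lay just under the lowest vehicle library. The log2 fold change was -0.15 (SE 0.0888, edgeR adjusted p = 0.205) in QGP-1 and -0.27 (SE 0.117, edgeR adjusted p = 0.0772) in BON-1. The BON-1 difference passed without DOX replicate 1 (adjusted p = 0.0429), with library-size scaling (0.0435) and with no filter on low counts (0.0473).

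Since ATRX and DAXX act together, their counts were also divided within each library, which removes the scaling between libraries. Per DAXX read there were 3.55 ± 0.214 ATRX reads in QGP-1 vehicle and 4.54 ± 0.448 in QGP-1 DOX libraries (mean ± SD, n = 3). In BON-1 the ratio was 2.54 ± 0.165 in vehicle and 3.33 ± 0.629 in DOX libraries. The ratio was higher in every DOX library than in every vehicle library of its line, by 0.35 (SE 0.0986) and 0.38 (SE 0.160) on the log2 scale. The 2-sided exact permutation p was 0.1 in each line, the smallest that 3 against 3 libraries allow. These ratios are per read and not per length, so they compare libraries and not the abundance of ATRX with that of DAXX. The shift was not particular to this pair. In each of these ratios the upper gene had a positive and the lower gene a negative log2 fold change in both lines. A rise of the ratio thus follows from the choice of the pair and is no separate result. With DOX, VHL per CHEK2 read rose by 0.68 in each line, and SETD2 per MEN1 read by 0.39 in QGP-1 and 0.56 in BON-1 (log2). Those ratios did not overlap either, at the same exact permutation p of 0.1.

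MEN1, on chromosome 11 (64803510 to 64811294, minus strand), was called lower in BON-1. The BON-1 vehicle libraries held 20.9, 23.3 and 18.8 CPM and the DOX libraries 14.8, 19.8 and 15.5 CPM, and the groups overlapped by 1 library. In QGP-1 the vehicle libraries held 30.7, 28.5 and 20.4 CPM and the DOX libraries 23.1, 24.8 and 25.2 CPM, with vehicle replicate 3 below all DOX libraries. The log2 fold change was -0.34 (SE 0.132, edgeR adjusted p = 0.0438) in BON-1 and -0.12 (SE 0.129, edgeR adjusted p = 0.499) in QGP-1. The BON-1 call was lost without vehicle replicate 1 (adjusted p = 0.0751), vehicle replicate 2 (0.195), DOX replicate 1 (0.15) or DOX replicate 3 (0.108), with DESeq2 (0.0775) and in 1 fit of all 12 libraries (0.0867). Conversely, without vehicle replicate 3 the QGP-1 difference was -0.28 at an edgeR adjusted p of 0.0405, a larger fall than the value from all 6 libraries. The MEN1 result thus rested on single libraries in both lines.

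CHEK2 lies on chromosome 22 (28687743 to 28742422, minus strand). It measured 15.1, 14.9 and 16.2 CPM in QGP-1 vehicle and 13.8, 11.5 and 9.94 CPM in QGP-1 DOX libraries. In BON-1 the vehicle libraries held 25.9, 30.1 and 25.6 CPM and the DOX libraries 24.0, 23.3 and 21.0 CPM. The DOX libraries were lower than the vehicle libraries without overlap in both lines. The log2 fold change was -0.39 (SE 0.126, edgeR adjusted p = 0.0267) in QGP-1 and -0.27 (SE 0.113, edgeR adjusted p = 0.0667) in BON-1. The QGP-1 call did not hold without vehicle replicate 1, 2 or 3 (adjusted p = 0.0568, 0.06 and 0.0727) and without DOX replicate 2 or 3 (0.0744 and 0.117). In BON-1 the difference passed with library-size (0.0378) or upper-quartile (0.0478) scaling. The annotation holds 7 CHEK2 pseudogenes by name, and the sources used here do not give the counting of reads with several matches, so the CHEK2 counts are uncertain to that extent.

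TSC1, TSC2 and MUTYH passed the test in neither line. TSC1, on chromosome 9, had a log2 fold change of -0.10 (SE 0.0862, edgeR adjusted p = 0.384) in QGP-1 and -0.07 (SE 0.110, edgeR adjusted p = 0.662) in BON-1. TSC2, on chromosome 16, had 0.10 (SE 0.0958, edgeR adjusted p = 0.454) and 0.11 (SE 0.0821, edgeR adjusted p = 0.305). MUTYH, on chromosome 1 and the least abundant of the 9 in reads, held 6.88 to 9.75 CPM in QGP-1 and 6.20 to 8.01 CPM in BON-1, with log2 fold changes of -0.14 (SE 0.147, edgeR adjusted p = 0.487) and -0.04 (SE 0.183, edgeR adjusted p = 0.902). The 95% interval was narrowest for TSC2 in BON-1, at -0.05 to 0.27 on the log2 scale, and widest for MUTYH there, at -0.39 to 0.32. TSC2 shares 784 exon bases with PKD1 and MUTYH 491 with TOE1, both on the opposite strand, and neither neighbor passed the test with DOX in either line. MUTYH also shares 1838 exon bases and DAXX 441 with a protein-coding gene of the annotation on the same strand, which counting by strand would not separate, so these counts are uncertain to that extent.

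**Figure D2:**
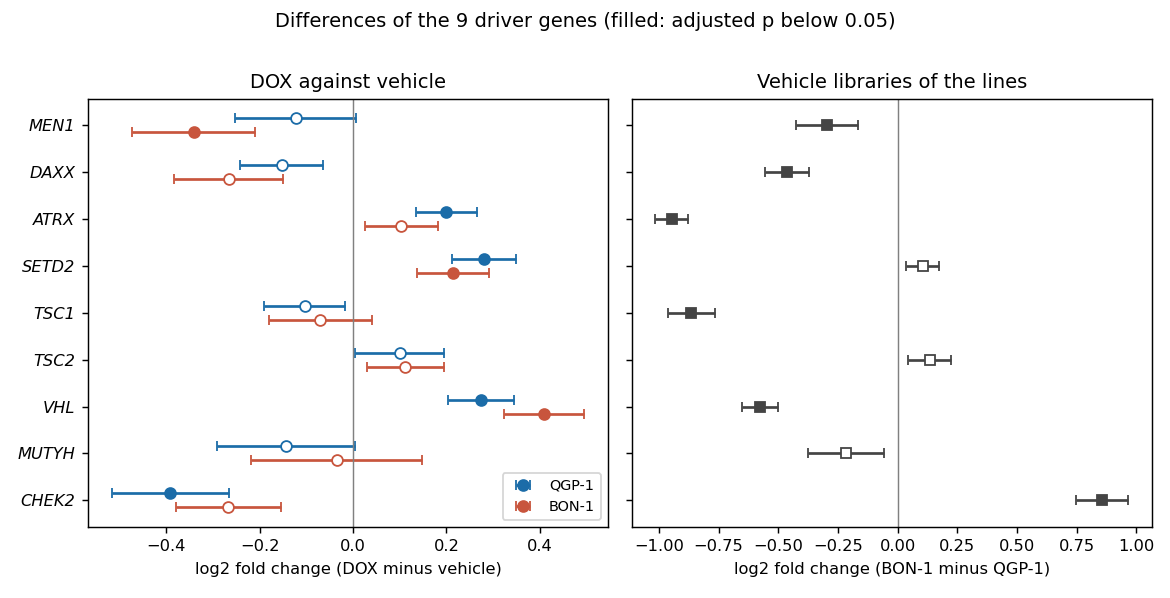
Log2 fold change with its SE (horizontal axis) of the 9 genes, DOX minus vehicle in QGP-1 (blue) and BON-1 (red) at left and BON-1 minus QGP-1 in vehicle libraries at right; filled symbols have an edgeR adjusted p below 0.05. DOX differences stay within 0.41 of 0, whereas ATRX, TSC1 and CHEK2 differ between the lines by 0.86 or more on this scale. On the deposited TPM scale ATRX and TSC1 change sign without passing the test (limma on log2(TPM + 1), adjusted p = 0.0840 and 0.0649).

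Groups that did not overlap were found for 4 of the 9 genes in QGP-1 and 6 of 9 in BON-1, beside 46.8% and 45.9% of all genes tested. Whether QGP-1 and BON-1 responded differently was tested by an interaction term in 1 fit of all 12 libraries. None of the 9 genes passed it, whereas 16.7% of 16598 genes did, and none had an unadjusted p below 0.05. With DESeq2 none of the 9 passed as well. The largest differences, BON-1 minus QGP-1, were -0.21 for MEN1 (SE 0.196, 95% interval -0.59 to 0.18, edgeR adjusted p = 0.516) and 0.15 for VHL (SE 0.108, 95% interval -0.07 to 0.36, edgeR adjusted p = 0.392). The calls made in 1 line only, of ATRX, CHEK2 and MEN1, are therefore not shown to differ between QGP-1 and BON-1.

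**Figure D3:**
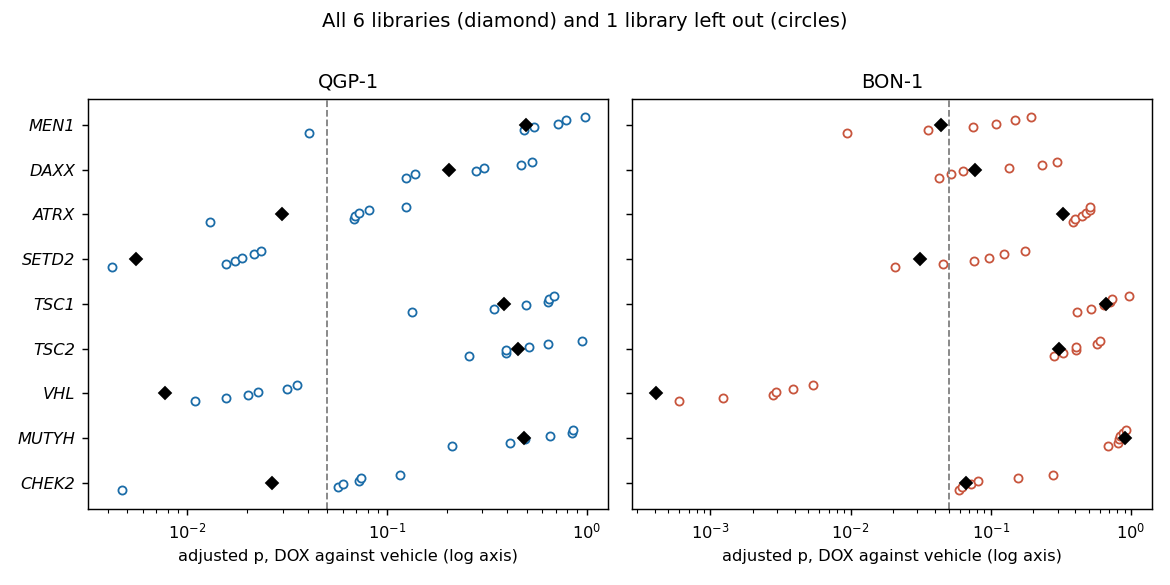
Adjusted p of DOX against vehicle (log axis) for the 9 genes in QGP-1 (left) and BON-1 (right), from all 6 libraries (diamond) and with each library left out in turn (6 circles); the dashed line marks 0.05. VHL stays left of the line throughout in both lines and SETD2 in QGP-1. ATRX and CHEK2 cross it in QGP-1, MEN1 in both lines, and SETD2 and DAXX in BON-1. The other values stay right of it.

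In vehicle libraries ATRX and TSC1 were lower and CHEK2 was higher in BON-1 than in QGP-1, each by a log2 difference of 0.86 or more in size. In BON-1, 5 of the 9 genes were lower and 1 was higher than in QGP-1, beside 38% of 15835 genes called lower and 39.4% called higher. ATRX averaged 150 ± 4.11 CPM in QGP-1 and 76.0 ± 1.01 CPM in BON-1 vehicle (SD, n = 3), a log2 difference of -0.95 (SE 0.0679, edgeR adjusted p = 8.04e-11). TSC1 averaged 49.7 ± 4.22 and 26.5 ± 2.99 CPM, a log2 difference of -0.87 (SE 0.0989, edgeR adjusted p = 1.10e-07). CHEK2 was the member higher in BON-1, at 15.4 ± 0.665 against 27.2 ± 2.55 CPM, a log2 difference of 0.86 (SE 0.109, edgeR adjusted p = 4.95e-07). None of the 3 overlapped between the lines. These directions hold on the scale of counts with TMM scaling: with limma on log2(TPM + 1) the median of all genes moved by 1.11 between the lines, and ATRX (0.33), TSC1 (0.34), VHL (0.67), DAXX (0.53) and MEN1 (0.83) came out higher in BON-1, while relative to that median they were lower, at -0.77, -0.77, -0.44, -0.58 and -0.27. The positive values of ATRX and TSC1 did not pass the limma test (adjusted p = 0.0840 and 0.0649). On log2(TPM + 0.1) with no filter, the values relative to the median were -0.54 for ATRX, -0.48 for TSC1, -0.18 for VHL and -0.11 for DAXX, but 0.10 for MEN1, so the direction of MEN1 between the lines depended on the scale.

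VHL and DAXX were also lower in BON-1 vehicle, by -0.58 (SE 0.0768, edgeR adjusted p = 9.44e-07) and -0.46 (SE 0.0918, edgeR adjusted p = 0.000123) on the log2 scale. These calls, like those of ATRX, TSC1 and CHEK2, held with any 1 vehicle library left out. MEN1 was called lower at -0.30 (SE 0.131, edgeR adjusted p = 0.0459), which was lost without QGP-1 vehicle replicate 1 (0.2) or 2 (0.147) or BON-1 vehicle replicate 1 (0.0717) or 3 (0.102), and with scaling to library size (0.155) or to the upper quartile (0.0645). SETD2 at 0.11, TSC2 at 0.13 and MUTYH at -0.22 were not called. HSCB, which shares 293 exon bases with CHEK2 on the opposite strand, was higher in BON-1 too, at a log2 difference of 1.20 (SE 0.218, edgeR adjusted p = 4.58e-05). PKD1, the neighbor of TSC2, was higher in BON-1 at 0.53 (SE 0.119, edgeR adjusted p = 0.000451). TOE1, the neighbor of MUTYH, was lower at -0.95 (SE 0.109, edgeR adjusted p = 1.15e-07). The part of these neighbors in the CHEK2, TSC2 and MUTYH counts was not tested.

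The ratio of the TSC2 to the TSC1 reads differed between the vehicle libraries of QGP-1 and BON-1, where line, medium, depth and deposited table cannot be told apart. For each TSC1 read, vehicle libraries held 1.25, 1.29 and 1.16 TSC2 reads in QGP-1 and 2.57, 2.24 and 2.65 TSC2 reads in BON-1. All BON-1 values lay above all QGP-1 values, with a log2 difference of 1.01 (SE 0.0873, 2-sided exact permutation p = 0.1). With DOX the ratio was 1.42 ± 0.0808 in QGP-1, above every vehicle library (log2 difference 0.21, SE 0.066, exact permutation p = 0.1), and 2.81 ± 0.184 in BON-1, where the groups overlapped (log2 difference 0.18, SE 0.092, exact permutation p = 0.2).

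Levels of different genes can be compared only per length, and here DAXX stood apart. Dividing each gene's counts by its deposited TPM, the authors' level per length, gives the gene length that was used, up to a common factor per library. That factor was set so that the median gene of each library matched the exon length of its GENCODE canonical transcript. The lengths are thus relative to other genes. For 8 of the members that length was 0.90 to 1.33 times the exon length of the GENCODE canonical transcript, but for DAXX it was 5.24 times its 2558 bases. Of the 95 protein-coding genes measured between positions 28903002 and 33457544 of chromosome 6, the block that holds the major histocompatibility complex, 91 had a ratio over 2 and the median was 7.06. The median over the other 13209 protein-coding genes was 0.997, a value that follows from the scaling, and 3.01% of them were over 2. In the hg38 reference, 4 of the 16 alternate sequences of chromosome 6 hold more than 50% of the DAXX exon bases as exact 100-base stretches. Whether the copies were summed into the length was not tested, and the counting of reads that match several copies is not given in the sources used here, so the DAXX count itself, and with it its place below, is uncertain.

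With the deposited TPM, DAXX had a median rank of 9 among the 9 members over the 12 libraries, with a range of 8 to 9. With the canonical length its median rank was 3, with a range of 1 to 5. Comparisons of DAXX between libraries use the same length throughout. On the canonical-length scale, where levels are in TPM without 3 abundant noncoding RNAs, QGP-1 vehicle libraries held DAXX at 44.7 and VHL at 44.3 TPM, followed by ATRX at 36.2 and SETD2 at 35.9 TPM. MEN1 at 26.4, TSC2 at 25.8 and CHEK2 at 22.4 TPM followed, and TSC1 at 15.6 and MUTYH at 13.7 TPM were lowest. Within each of these 4 sets neighbors overlapped over the 3 libraries, and the sets were separate from one another.

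BON-1 vehicle libraries had another order. CHEK2 at 43.1 and SETD2 at 40.8 TPM were highest and overlapped, and DAXX at 34.2, VHL at 31.4 and TSC2 at 29.8 TPM overlapped below them. MEN1 at 22.6, ATRX at 19.9, MUTYH at 12.5 and TSC1 at 9.01 TPM were each separate from the next. ATRX thus went from place 3 in QGP-1 to place 7 in BON-1, and CHEK2 from place 7 to place 1. In the DOX libraries VHL was highest in QGP-1 at 58.2 TPM, and SETD2 at 46.9 and VHL at 41.3 TPM overlapped at the top in BON-1.

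**Figure D4:**
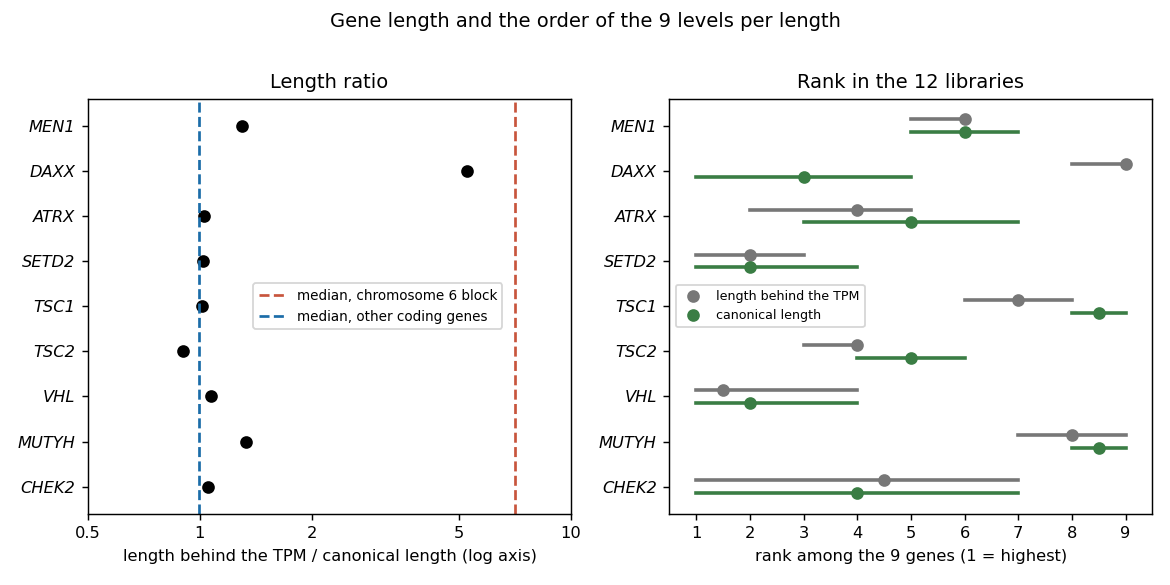
Left, the gene length behind the deposited TPM divided by the canonical transcript length (log axis) for the 9 genes, with dashed lines at the median of the chromosome 6 block (7.06) and of the other protein-coding genes (0.997). Lengths were scaled so that the median gene of each library matched its canonical length. Right, rank of each gene's level per length (1 is highest) as the median (point) and range (line) over 12 libraries with either length; DAXX moves from a median rank of 9 to 3.

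The genes of the pathways around the 9 members were taken from 11 lists with 150 genes of the tables, the members themselves left out. In QGP-1, 29 of the 146 tested were lower and 26 higher with DOX, and in BON-1 29 of 145 were lower and 24 higher, with medians of 0.01 and -0.04 on the log2 scale. These shares lie near those of all genes, which were 17.7% lower and 17.3% higher in QGP-1 and 18.3% lower and 17% higher in BON-1. The counts of each single list below stand beside the same shares. In both lines 12 were lower and 8 higher, beside 7.23% and 6.88% of the genes tested in both. With DESeq2, library-size scaling or 1 library left out, none of the 4 totals within a line moved by more than 1.5 times, whereas for single lists 54 counts did and 298 did not.

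Among 9 partners of menin, 1 rose and none fell in QGP-1, and 1 rose and 3 fell in BON-1. KMT2A, the methyltransferase that menin tethers, was the one that rose in both, by 0.52 (SE 0.0829, edgeR adjusted p = 0.000318) in QGP-1 and 0.31 (SE 0.0774, edgeR adjusted p = 0.00242) in BON-1 on the log2 scale. Of 5 genes known as targets of menin, none passed in QGP-1, and 2 rose and 1 fell in BON-1. HOXA9, a homeobox gene, rose there by 0.50 (SE 0.139, edgeR adjusted p = 0.00544) and TERT, the catalytic subunit of telomerase, fell by 0.80 on the log2 scale (SE 0.313, edgeR adjusted p = 0.0462) from 2.82 ± 0.208 to 1.62 ± 0.325 CPM, a call lost in 5 of the 6 fits with 1 library left out. TERT was at 0.399 ± 0.0924 CPM in QGP-1 vehicle, with a log2 fold change of -0.02 (SE 0.524) under DOX.

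Of 12 genes tested for histone H3.3 deposition and alternative lengthening of telomeres, 1 fell and 3 rose in QGP-1 and 4 fell and 1 rose in BON-1. ASF1B, a histone chaperone of proliferating cells, fell in both, by 0.55 and 0.49 on the log2 scale. Of 10 telomere genes, 2 fell and 3 rose in QGP-1 and 3 fell and 3 rose in BON-1. The shelterin subunits moved in both directions: TERF1 rose by 0.47 in each line, TERF2IP rose by 0.37 and 0.61, and POT1 fell by 0.45 and 0.28 (log2; edgeR adjusted p at most 0.0197). Of 16 genes of histone H3 lysine 36 methylation, 3 fell and 5 rose in QGP-1 and 3 fell and 1 rose in BON-1. SMYD2, a lysine methyltransferase, fell by 0.88 and 0.74, and DNMT3B, a DNA methyltransferase that reads this mark, fell by 0.24 and 0.31 on the log2 scale.

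Around TSC1 and TSC2, 3 of 23 mTORC1 pathway genes fell and 5 rose in QGP-1, and 3 of 22 fell and 4 rose in BON-1. DDIT4 (REDD1), which restrains mTORC1 through the TSC complex, fell most, from 14.8 ± 0.098 to 5.85 ± 1.64 CPM in QGP-1 and from 5.24 ± 0.191 to 2.27 ± 0.605 CPM in BON-1, or by 1.34 (SE 0.163) and 1.20 (SE 0.251) on the log2 scale. PIK3CA, the catalytic subunit of phosphoinositide 3-kinase, rose by 0.50 and 0.45. MTOR rose by 0.29 (SE 0.108, edgeR adjusted p = 0.0481) in QGP-1 and was at 0.17 (SE 0.0749, edgeR adjusted p = 0.0771) in BON-1. TBC1D7, the third subunit of the TSC complex, was at 0.67 (SE 0.357) and 0.33 (SE 0.439) without passing the test.

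Around VHL, 2 of 10 genes of the ligase and its substrates fell and 1 rose in QGP-1, and none fell and 4 rose in BON-1. EPAS1 (HIF2A) rose by 0.28 (SE 0.0770, edgeR adjusted p = 0.0125) and 0.43 (SE 0.0799, edgeR adjusted p = 0.000111) on the log2 scale. HIF1A did not pass the test, at 0.16 (SE 0.0611, edgeR adjusted p = 0.0558) and 0.01 (SE 0.0755). Of the genes known as targets of these factors, 7 of 11 fell and none rose in QGP-1, with a median of -0.51, beside 17.7% of all genes lower there and 17.3% higher. In BON-1, 3 of 12 fell and 4 rose, with a median of 0.13, beside 18.3% of all genes lower and 17% higher. The difference between the lines was not tested for the list. LDHA, lactate dehydrogenase A, fell in both, by 0.97 (SE 0.0700) and 1.14 (SE 0.0771). PGK1, a glycolytic kinase, fell by 0.68 (SE 0.0698) and 0.20 (SE 0.0809, edgeR adjusted p = 0.0499), and this difference between the lines passed the interaction test (0.49, SE 0.110, edgeR adjusted p = 0.00318).

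Of 19 genes of base excision repair, the pathway of MUTYH, 8 fell and 2 rose in QGP-1 and 6 fell and 1 rose in BON-1, where 3 fell without vehicle replicate 1. Of all genes, 17.7% were lower and 17.3% higher in QGP-1, and 18.3% lower and 17% higher in BON-1. The glycosylase MPG fell by 0.49 and 0.52, the glycosylase TDG by 0.23 and 0.49, and the endonuclease APEX1 by 0.23 in each line on the log2 scale. Of 22 checkpoint genes around CHEK2, 2 fell and 2 rose in QGP-1 and 2 fell and 1 rose in BON-1, and none passed in the same direction in both. TP53BP1, which binds broken DNA ends, rose by 0.23 and MRE11, a nuclease of break repair, fell by 0.22 in QGP-1. CDC25C, a phosphatase that CHEK2 phosphorylates, fell by 0.53 and the kinase CHEK1 fell by 0.35 in BON-1. Among 15 other genes mutated in pNETs or in these lines, of which 14 were tested in BON-1, 1 fell and 5 rose in QGP-1 and 2 fell and 4 rose in BON-1. KMT2C, a methyltransferase of histone H3 lysine 4, rose by 0.53 and 0.26, and CTNNB1 (beta-catenin) fell by 0.22 and 0.58, a difference between the lines of -0.36 (SE 0.0983, edgeR adjusted p = 0.0143).

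**Figure D5:**
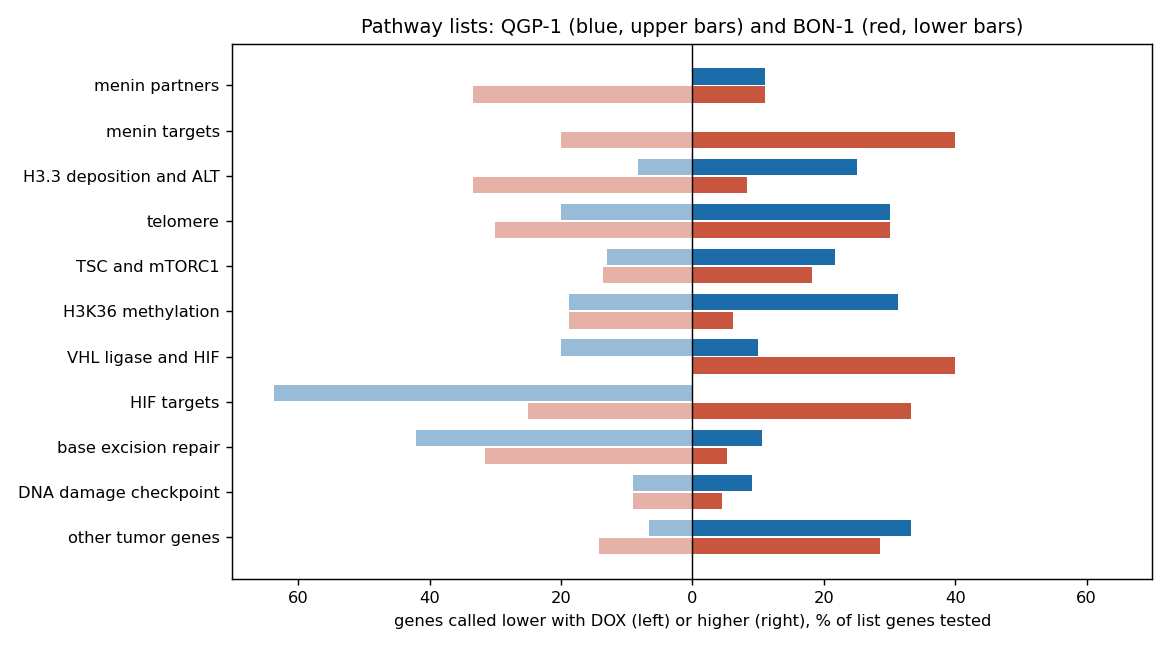
Share of the tested genes of each of 11 pathway lists (horizontal axis, percent) called lower with DOX (pale bars to the left) or higher (dark bars to the right) in QGP-1 (blue) and BON-1 (red), at an edgeR adjusted p below 0.05. The longest bar is that of the HIF targets in QGP-1, 7 of 11 lower, and the lists hold 5 to 23 genes each. Over all genes tested, 17.7% were lower and 17.3% higher in QGP-1, and 18.3% lower and 17% higher in BON-1.

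The genes whose level moved most like DAXX over the 12 libraries were PPP2R5D, MRPL38 and ARFGAP2, with a root mean square difference of 0.0544, 0.0797 and 0.0871 in centered log2 CPM. Over the 9091 genes compared, the median difference from DAXX was 0.406. For ATRX they were MSI2, DENND1A and CBFB, at 0.0607, 0.0615 and 0.0622, beside a median of 0.536. For MEN1 they were ZNF358, DNAAF5 and SLC3A2, at 0.117, 0.119 and 0.120, beside a median of 0.410, so the nearest genes to MEN1 were less alike than those to ATRX or DAXX. The 12 libraries come from 2 lines, whose difference enters each of these values.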

How the data were processed

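Per the labels, total RNA was used for TruSeq Stranded mRNA libraries, and reads were aligned to GRCh38 (hg38) with STAR. The authors deposited whole-number gene counts and TPM values in separate tables for each line; the counter, its strand setting and the treatment of reads with several matches are not given in the sources used here. Counts were tested as deposited with edgeR 4.0.16 (R 4.3.3; filterByExpr, TMM, glmQLFit and glmQLFTest) on the whole table, separately for DOX in each line, for the lines in vehicle and for their interaction over all 12 libraries, with Benjamini-Hochberg adjustment and a threshold of 0.05. CPM uses TMM factors of all 12 libraries. Tested on simulated data with 2-fold changes in the DOX comparison of QGP-1, 162 of 194 changed genes were recovered with 9 false calls. For the interaction, 136 of 198 were recovered with 10 false calls. A 2-fold change is larger than any DOX change of the 9 genes, so recovery of changes of their size was not tested. Alternatives were DESeq2 1.42.0, limma 3.58.1 on log2(TPM + 1), other scalings and filters, thresholds and each library left out. Canonical lengths came from GENCODE version 44, promoters from RefSeq. Named genes were all 9 members, MUC1, direct partners of called members (TBC1D7, KMT2A, TERT, HIF1A, EPAS1, MTOR), up to 3 genes per list with the largest mean change among those called alike in both lines (otherwise up to 2 per line), and the 3 genes most like MEN1, DAXX and ATRX. A gene that this rule names is not reported here. The members, lists and count ratios were chosen with earlier results of these data known. Triplicate cultures measure the spread within a line, and 1 line gives no spread between tumors.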

Additional observations from a re-analysis of the deposited data

How the results depend on the processing

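The higher levels of VHL in both lines and of SETD2 in QGP-1 under DOX and the differences of ATRX, TSC1, VHL, DAXX and CHEK2 between the lines kept their direction and their side of 0.05 with DESeq2, library-size or upper-quartile scaling, other filters on counts, the replicate block, each library left out and a threshold of 0.01. Replicate numbers gave no clear sign of pairing (same-number correlations of -0.07, 0.11 and 0.07 in QGP-1 and -0.04, -0.03 and 0.08 in BON-1). Different-number correlations ran from -0.25 to 0.16 in QGP-1 and from -0.08 to 0.10 in BON-1. Between the vehicle libraries of the lines, same-number correlations were 0.14, 0.04 and 0.08. Such weak values cannot show that the samples were unpaired. The fit with the replicate block called 2738 genes lower and 2749 higher in QGP-1, 2656 and 2408 in BON-1, 6093 and 6272 between the lines and 1308 and 1459 for the interaction, and changed no member count. Members called with 1 library left out ranged from 0 to 1 lower and 2 to 3 higher in QGP-1, 0 to 1 lower and 1 to 2 higher in BON-1, and 4 to 5 lower and 1 higher between the lines.

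Among the counts of members in BON-1, the 1 called lower became 0 with DESeq2, with all 12 libraries in 1 fit and at 0.01, 2 with the upper quartile, 2 without a filter and 3 with library size, and the 2 called higher became 1 with library size, without a filter, at 0.01 or with an absolute log2 fold change above 0.25. In QGP-1 the 1 called lower became 0 at 0.01, and between the lines 2 were higher with library size in place of 1. ATRX was no longer called higher in QGP-1 at 0.01, with an absolute log2 fold change above 0.25 or with the upper quartile. MEN1 was no longer called lower between the lines at 0.01, with library size or with the upper quartile. At 0.01 the genes called fell to 1617 lower and 1655 higher in QGP-1 and to 621 lower and 786 higher for the interaction. With canonical lengths, an alternative chosen after seeing the data, the median rank became 3 for DAXX, 8.5 for TSC1 and 5 for TSC2.

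The deposited TPM gave other results. Without 3 abundant noncoding RNAs the median of all genes still moved by 0.29 in QGP-1, -0.05 in BON-1, 0.31 between the lines and -0.33 in the interaction, and the cause was not tested. In QGP-1 limma called 91 genes lower and 9166 higher on log2(TPM + 1), 157 and 10159 on log2(TPM + 0.1) with no filter, and 668 and 6520 on log2(TPM + 1) without those RNAs, with 0 members lower in each and 9 and 6 higher in the first 2. In BON-1 the counts were 229 and 29, 86 and 12, and 1410 higher in the last, with 0 members lower in each and 0, 0 and 1 higher. Between the lines they were 644 and 9799, 1562 and 12434, and 3765 lower, with 0, 0 and 3 members lower and 7, 7 and 3 higher. For the interaction they were 8060 and 54, 7100 and 79, and 5566 and 488, with 9, 5 and 3 members lower.

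The signs that turned on log2(TPM + 1) were those of MEN1 (0.48), DAXX (0.34), TSC1 (0.46), MUTYH (0.37) and CHEK2 (0.26) in QGP-1, of ATRX (-0.22), SETD2 (-0.14) and TSC2 (-0.23) in BON-1, of MEN1 (0.83), DAXX (0.53), ATRX (0.33), TSC1 (0.34), VHL (0.67) and MUTYH (0.75) between the lines, and of TSC1 (-0.75), TSC2 (-0.93), VHL (-0.85), MUTYH (-0.67) and CHEK2 (-0.83) in the interaction. On log2(TPM + 0.1) the same genes turned, at 0.61, 0.55, 0.61, 0.57 and 0.32 in QGP-1, -0.26, -0.15 and -0.25 in BON-1, 1.03, 0.82, 0.39, 0.45, 0.75 and 1.08 between the lines, and -1.02, -1.08, -0.95, -0.96 and -0.95 in the interaction. Without the 3 RNAs MEN1 (0.20), DAXX (0.15), TSC1 (0.20) and MUTYH (0.16) in QGP-1, MEN1 (0.0324) and MUTYH (0.10) between the lines, and TSC1 (-0.29), TSC2 (-0.34), VHL (-0.22), MUTYH (-0.23) and CHEK2 (-0.22) in the interaction turned. None of these last genes but MEN1 between the lines was called from the counts. Library size turned TSC1 (-0.0283) and TSC2 (-0.0469) in the interaction, and no filter turned TSC2 (-0.00642) there.

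With 1 library left out, uncalled differences close to 0 changed sign: TSC2 in QGP-1 (-0.00959 to 0.18), TSC1 (-0.15 to 0.010) and MUTYH (-0.12 to 0.0502) in BON-1, and DAXX (-0.21 to 0.00663), TSC1 (-0.0463 to 0.11), TSC2 (-0.0561 to 0.13) and MUTYH (-0.0264 to 0.23) in the interaction. MUTYH had the fewest reads of the 9 genes, 123 to 411 a library, and what part depth has in its error was not tested.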
